A study of Mus musculus with 4 samples.

Results

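Sall1, Sall3, Spi1, Irf8, Maf, Mef2a, Mef2c, Runx1 and Bhlhe41, transcription factors by which microglia and other macrophages are specified and kept as such, were taken by symbol from the gene table of a single-cell RNA-sequencing (scRNA-seq) series, and make up 9 of its 32285 genes. All 9 were detected in microglia of every mouse and passed the filter on low counts. Brain cells of 2 PRMT1FL mice, which carry floxed Prmt1 alleles and are called wild type in the labels, were compared with those of 2 PRMT1Cx3cr1-KO mice, in which tamoxifen activates a CreERT recombinase driven from Cx3cr1 that deletes the floxed alleles. PRMT1 is an arginine methyltransferase, an enzyme that adds methyl groups to histones and other proteins. All 4 mice were on the C57BL/6 background, were injected with tamoxifen at 5 to 6 wk of age and later received 0.2% cuprizone (CPZ), a copper chelator that strips myelin from the brain, in the diet for 5 wk. In the labels that age stands beside the diet instead. Whether PRMT1FL mice carried the driver is not given in the sources used here. If they did not, driver and deletion cannot be told apart for any gene compared between genotypes. Cx3cr1 also drives the recombinase in macrophages outside the brain.

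As background, microglia are the macrophages that settle in the brain before birth and renew themselves there. PU.1, encoded by Spi1, and its partner IRF8 build the macrophage programme and keep it open at enhancers. RUNX1 acts early in blood formation and in the precursors of microglia, whereas MAF, MEF2A and MEF2C bind beside PU.1 in mature macrophages. SALL1 is a zinc finger repressor that separates microglia from other macrophages, SALL3 is its relative, and BHLHE41 is an E-box binding repressor shared by several tissue macrophages. TGF-beta from the brain is known to sustain the homeostatic programme in which SALL1 takes part.

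Each mouse gave 1 library, with 76943248 to 99559644 unique molecular identifiers (UMIs, tags that count each captured RNA once). Of the cells, 40869 held 200 to 6000 genes with no more than 10% of UMIs from mitochondrial genes, and 39472 of these fell into microglial clusters. Any pair of libraries shared at most 46 barcodes. UMIs were summed per mouse over microglia and are given as CPM (UMIs of the gene per 1000000 UMIs), with the totals scaled by TMM, a correction for library composition, in the comparison of genotypes and as counted elsewhere. Such a sum can change through the level within cells or through the shares of cell states, and the sums alone cannot tell these apart. The labels do not say whether mice of a genotype were littermates. All 9 markers in the microglial list, P2ry12 among them, were present in every mouse, with a summed level of 19909.7 to 22021.6 CPM. Prmt1 itself was at 93.2 and 86.2 CPM in PRMT1FL mice while the knockouts had 69.7 and 67.8 CPM. Its log2 fold change, -0.38 with a standard error of 0.07, missed the threshold (adjusted p = 0.0754 by edgeR). The UMIs come from transcript ends and need not cover the deleted exons. DESeq2 called Prmt1 (adjusted p = 0.00117), in a fit that called 729 genes. With a PRMT1Cx3cr1-KO mouse left out the value was -0.40 without the first and -0.36 without the second. Without PRMT1FL mouse 1 the value was -0.33 and with only mouse 1 of that genotype -0.44.

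The first question was whether microglia of PRMT1Cx3cr1-KO mice carry the lineage factors at another level. No member passed the threshold between genotypes (0 of 9 at adjusted p under 0.05 by edgeR's quasi-likelihood test; 1 had an unadjusted p under 0.05, and DESeq2 called 1). Over all 13824 genes tested edgeR called 106, or 0.767%, and 19.9% had an unadjusted p under 0.05. The median log2 fold change was -0.03 over the members and -0.00434 over all genes. Irf8 stood at -0.31 and the other members lay within -0.15 to 0.08 on this scale.

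**Figure D1:**
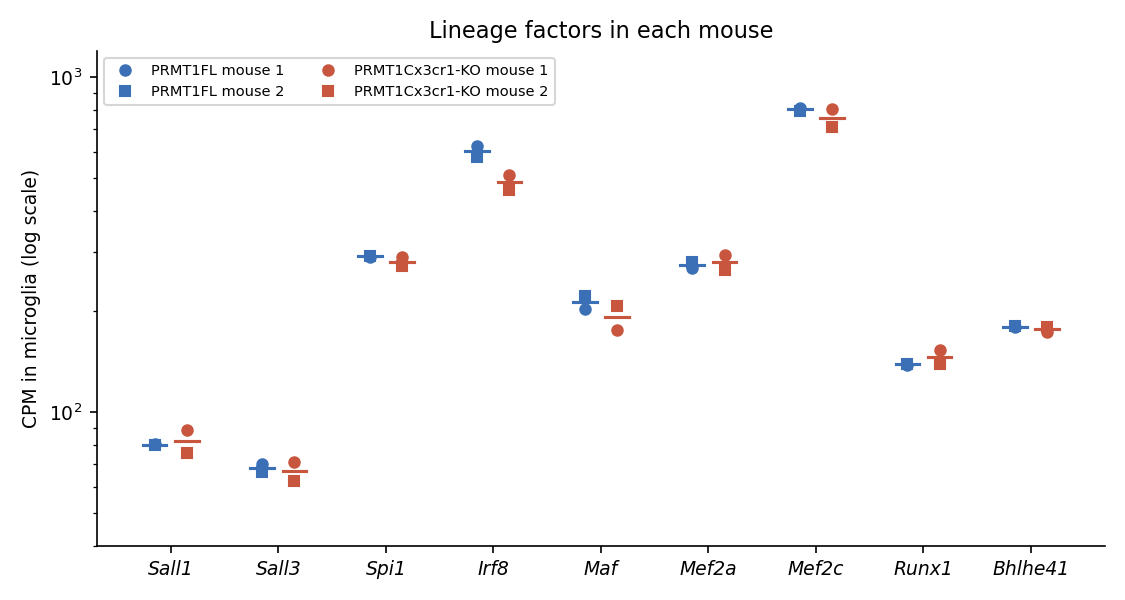
Level of each lineage factor in microglia of each mouse, in CPM on a log axis; circles are mouse 1 and squares mouse 2 of a genotype, and bars are the means of 2 mice. Irf8 is the gene whose PRMT1FL points (624 and 578 CPM) lie clearest above the PRMT1Cx3cr1-KO points (511 and 462 CPM).

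Among the factors that build the macrophage programme, Irf8 (ENSMUSG00000041515, chromosome 8 of GRCm38, 120736358 to 120756694, plus strand), the partner of PU.1, was at 624 and 578 CPM in PRMT1FL mice and at 511 and 462 CPM in PRMT1Cx3cr1-KO mice. Both PRMT1Cx3cr1-KO values lay below both PRMT1FL values, as they did for 27.6% of all genes. The log2 fold change was -0.31 (standard error 0.08, 95% interval -0.51 to -0.10; adjusted p = 0.13 by edgeR). It stayed between -0.37 and -0.23 under all 16 other settings. It passed the threshold with DESeq2 (-0.30, adjusted p = 0.0292) and with no filter on low counts (-0.30, adjusted p = 0.0157 by edgeR). So it did with the cell state as a term (-0.27, adjusted p = 0.000667 by limma). The numbers of genes called in these fits were 729, 1672 and 2927. The last fit takes the states of a mouse as separate sums, so its p does not measure the spread between mice alone. Without PRMT1Cx3cr1-KO mouse 1 the value was -0.37.

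Spi1 (ENSMUSG00000002111, chromosome 2, 91082390 to 91115756, plus strand), which encodes PU.1, was at 291 and 293 CPM in PRMT1FL mice and at 290 and 273 CPM in PRMT1Cx3cr1-KO mice. These values lay close together without overlapping, since PRMT1Cx3cr1-KO mouse 1 was just under both PRMT1FL mice. The log2 fold change of -0.05 (standard error 0.07, 95% interval -0.22 to 0.11; adjusted p = 0.708 by edgeR) leaves room for a fall to 0.861 of the PRMT1FL level. Runx1 (ENSMUSG00000022952, chromosome 16, 92601466 to 92826149, minus strand), the factor of early blood formation, was at 138 and 140 CPM in PRMT1FL mice and at 153 and 140 CPM in PRMT1Cx3cr1-KO mice. PRMT1Cx3cr1-KO mouse 1 was the high value, and mouse 2 lay above the higher PRMT1FL mouse by less than 1 CPM. Such an order, with both PRMT1Cx3cr1-KO mice above, held for 26.2% of all genes. Its log2 fold change was 0.08 (standard error 0.07, 95% interval -0.09 to 0.25; adjusted p = 0.586 by edgeR).

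For the factors that bind beside PU.1 in mature macrophages, the genotypes overlapped. Maf (ENSMUSG00000055435, chromosome 8, 115682942 to 115707794, minus strand) was at 203 and 222 CPM in PRMT1FL mice and at 176 and 207 CPM in PRMT1Cx3cr1-KO mice. PRMT1Cx3cr1-KO mouse 1 was the low value, and the log2 fold change, -0.15 with a standard error of 0.10 (adjusted p = 0.432 by edgeR), was -0.03 without that mouse and -0.27 without PRMT1Cx3cr1-KO mouse 2, neither past the threshold. With the state as a term Maf was called (-0.14, adjusted p = 0.0433 by limma), in a fit that called 2927 of 12873 genes. That fit takes the states of a mouse as separate sums, so its p does not measure the spread between mice alone. Mef2a (ENSMUSG00000030557, chromosome 7, 67231163 to 67372858, minus strand) was at 269 and 282 CPM in PRMT1FL mice and at 295 and 267 CPM in PRMT1Cx3cr1-KO mice, with the highest and the lowest value both in PRMT1Cx3cr1-KO mice. Mef2c (ENSMUSG00000005583, chromosome 13, 83504034 to 83667080, plus strand), linked to restraint of microglial activation, was at 811 and 794 CPM in PRMT1FL mice and at 802 and 713 CPM in PRMT1Cx3cr1-KO mice. Here only PRMT1Cx3cr1-KO mouse 2 stood lower. The log2 fold changes were 0.03 for Mef2a (95% interval -0.16 to 0.21; adjusted p = 0.88 by edgeR) and -0.08 for Mef2c (95% interval -0.28 to 0.12; adjusted p = 0.611 by edgeR).

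For Sall1, Sall3 and Bhlhe41 the genotypes overlapped as well. Sall1 (ENSMUSG00000031665, chromosome 8, 89027235 to 89044162, minus strand) was at 80.4 and 79.6 CPM in PRMT1FL mice and at 88.3 and 75.6 CPM in PRMT1Cx3cr1-KO mice, so that the PRMT1Cx3cr1-KO mice lay on either side of the PRMT1FL mice. Sall3 (ENSMUSG00000024565, chromosome 18) showed the same arrangement, at 70.1 and 66.5 CPM against 71.0 and 62.5 CPM. Bhlhe41 (ENSMUSG00000030256, chromosome 6, 145858243 to 145865558, minus strand) was at 179 and 181 CPM in PRMT1FL mice and at 174 and 180 CPM in PRMT1Cx3cr1-KO mice. The log2 fold changes were 0.03 for Sall1 (95% interval -0.18 to 0.24), -0.03 for Sall3 (95% interval -0.23 to 0.16) and -0.02 for Bhlhe41 (95% interval -0.17 to 0.13), with adjusted p of 0.862, 0.856 and 0.868 by edgeR. For Sall1 this interval spans 0.885 to 1.18 of the PRMT1FL level. The sign of these 3 genes and of Mef2a turned under some other settings, where no value past 0 exceeded 0.08 in size.

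**Figure D2:**
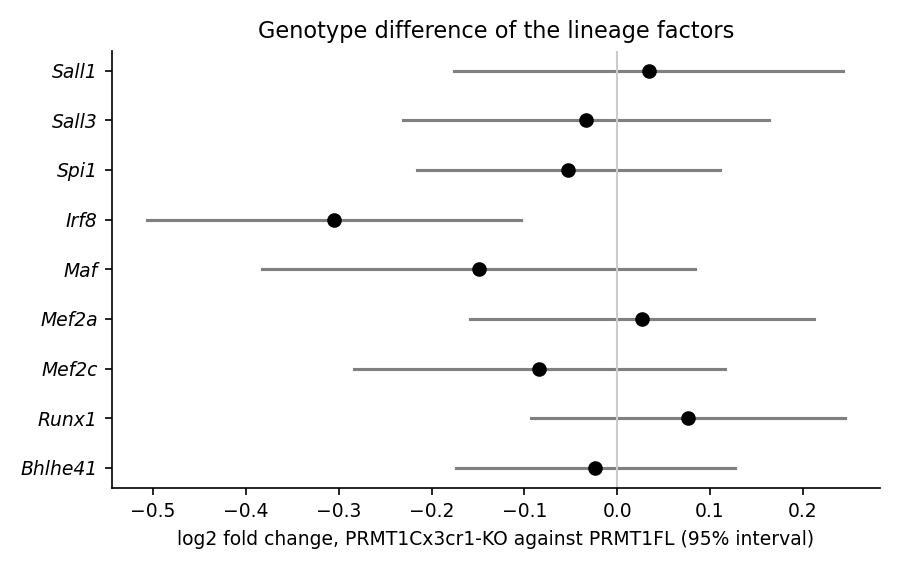
Log2 fold change of each lineage factor, PRMT1Cx3cr1-KO against PRMT1FL, in microglia of 2 mice per genotype; points are edgeR estimates and lines their 95% intervals. The interval of Irf8 (-0.51 to -0.10) lies below 0 and those of the other 8 genes cross it, but no lineage factor passed the threshold after adjustment over 13824 genes.

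The wider families and the programme around these factors were counted from lists drawn up by hand. Of the relatives of the members (other Sall, Irf, Maf, Mef2, Runx and Bhlhe genes, Spib, Spic and the RUNX partner Cbfb) 17 of 22 were tested and 1 rose: Runx3, a relative of Runx1 active in dendritic cells and T cells, at 1.85 and 1.14 CPM in PRMT1FL against 5.35 and 8.76 CPM in PRMT1Cx3cr1-KO mice (log2 fold change 2.22, standard error 0.30, adjusted p = 0.0445 by edgeR). The next by p were Runx2, Irf3 and Mafg, at log2 fold changes of 0.38, -0.13 and 0.13 and not past the threshold. Of 28 other macrophage lineage factors tested 1 rose: Tfec, a macrophage member of the MiT family, at 0.198 and 0.0988 CPM against 1.43 and 2.71 CPM (log2 fold change 3.76, standard error 0.46, adjusted p = 0.0367 by edgeR). Lyl1 (0.47), Batf3 (-0.30) and Ets2 (0.42) came next and were not called. Without B1-like cells, which were more numerous in PRMT1Cx3cr1-KO mice, Runx3 was at 2.08 (adjusted p = 0.039 by edgeR) and Tfec at 3.77 (adjusted p = 0.0354 by edgeR). The summed level of the 7 F-like markers (Mrc1, Pf4, Lyve1 and others, known from macrophages at the borders of the brain) in the same sums was 20.2 and 20.5 CPM in PRMT1FL against 38.0 and 99.1 CPM in PRMT1Cx3cr1-KO mice, with no marker at 0 in any mouse, and its part in these values was not tested.

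Of 20 homeostatic microglial genes 2 fell and none rose. Cx3cr1, the fractalkine receptor, was at 1482 and 1585 CPM in PRMT1FL against 842 and 799.8 CPM in PRMT1Cx3cr1-KO mice (log2 fold change -0.90, standard error 0.08, adjusted p = 0.0172 by edgeR). Its locus carries the CreERT driver, so that driver and deletion cannot be told apart for this gene. The same holds for all other genes here if PRMT1FL mice lacked the driver. Siglech, a sialic acid binding receptor, was at 426 and 447 CPM against 290 and 264 CPM (-0.66, standard error 0.08, adjusted p = 0.0323 by edgeR). Crybb1 (0.45) and Cst3 (-0.48) were next and not called. No gene of 12 in the TGF-beta and SMAD list passed by edgeR. Its leading ones were Nrros (-0.28), Itgav (0.25), Tgfb1 (-0.32) and Smad7 (-0.25). An unadjusted p under 0.05 was found for 3 of 12 genes of the TGF-beta list, 1 of 17 relatives, 11 of 28 other lineage factors and 10 of 20 homeostatic genes, where 19.9% of all genes had one. The median log2 fold change was -0.04 over the relatives, -0.00237 over the other lineage factors, -0.15 over the homeostatic genes and -0.06 over the TGF-beta list. Without PRMT1FL mouse 1 or mouse 2 the edgeR calls of Runx3, Tfec, Cx3cr1 and Siglech were lost (adjusted p of 0.345 to 0.547). With each mouse left out in turn the log2 fold change ran from 1.82 to 2.63 for Runx3 and from 3.21 to 4.37 for Tfec, lowest without PRMT1Cx3cr1-KO mouse 2 and highest without PRMT1FL mouse 1.

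Microglia were then divided into states by clustering without the members, and 8 states had at least 50 cells in every mouse. They are called by a leading gene or feature: the P2ry12 state (1405 cells), the Txnip state (7339), the Rgs1 state (9532), the Il12b state (3775), the Baiap2l2 state (6763), proliferating A1-like cells (1658), interferon-like cells (523) and a Malat1-low state (7698). A name in -like rests on marker genes only. The division is not fixed. With the members kept in the clustering, 1 of them among its variable genes, 72.3% of cells kept their state. The P2ry12 state was then no longer a cluster of its own. Levels by state are descriptions in CPM of the sum per mouse and state, with no test, since states were made from expression.

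The state led by P2ry12, a purine receptor of homeostatic microglia, had the highest mean level for 7 of 9 members, the others being Runx1 and Irf8. For 8 of 9 members, Irf8 being the exception, every mouse's value in the P2ry12 and Txnip states lay above every mouse's value in the other 6 states, as it did for 15.2% of 12873 genes. Sall1 was at 280 and 285 CPM in the P2ry12 state of PRMT1FL mice and at 293 and 258 CPM in PRMT1Cx3cr1-KO mice, then at 148 to 179 CPM in the Txnip state, at 56.2 to 85.0 CPM in the 5 states that followed and at 36.1 to 44.7 CPM in the Malat1-low state. The first pair of steps and the last did not overlap between mice, and the states in between could not be ordered. Maf followed the same order, with 811 and 797 CPM in the P2ry12 state of PRMT1FL mice, 648 and 658 CPM in that of PRMT1Cx3cr1-KO mice, 333 to 413 CPM in the Txnip state, and 78.7 to 104 CPM in the Malat1-low state. For Sall1, Maf, Mef2a and Mef2c the P2ry12 state was above every other state in all mice, which held for 15% of genes.

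Mef2a was at 640 to 819 CPM in the P2ry12 state, 532 to 561 CPM in the Txnip state and 64.4 to 83.4 CPM in the Malat1-low state. Mef2c was at 1694 to 1872 CPM, 1203 to 1314 CPM and 282 to 301 CPM in the same states. The 5 other states of these genes lay between 217 and 296 CPM for Mef2a and between 618 and 812 CPM for Mef2c, most of them overlapping. Runx1 and Sall3 did not part the P2ry12 and Txnip states. Runx1 was at 211 to 288 CPM in the first and 234 to 282 CPM in the second, next at 175 to 191 CPM in interferon-like cells and lowest, at 26.1 to 30.1 CPM, in the Malat1-low state. Sall3 was at 103 to 153 CPM and 91.9 to 124 CPM in the first and second and at 15.3 to 17.6 CPM in the Malat1-low state.

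Spi1, Bhlhe41 and Irf8 differed less between states. Spi1 spanned least of the 9, at 337 to 404 CPM in the P2ry12 state, 347 to 369 CPM in the Txnip state and 244 to 302 CPM in all others, with 276 to 285 CPM in the Malat1-low state, a span of 1.46-fold between the highest and the lowest state mean. Bhlhe41 spanned 1.72-fold, from 208 to 289 CPM in the P2ry12 state down to 138 to 151 CPM in interferon-like cells. Irf8, an interferon regulatory factor, was highest in interferon-like cells, at 918 and 790 CPM in PRMT1FL mice and 703 and 608 CPM in PRMT1Cx3cr1-KO mice, where it overlapped with the Txnip (667 to 743 CPM) and P2ry12 (630 to 812 CPM) states, and lowest in the Malat1-low state, at 277 to 359 CPM. The other members spanned 6.05-fold (Mef2c) to 10.3-fold (Mef2a), and Irf8 spanned 2.39-fold.

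**Figure D3:**
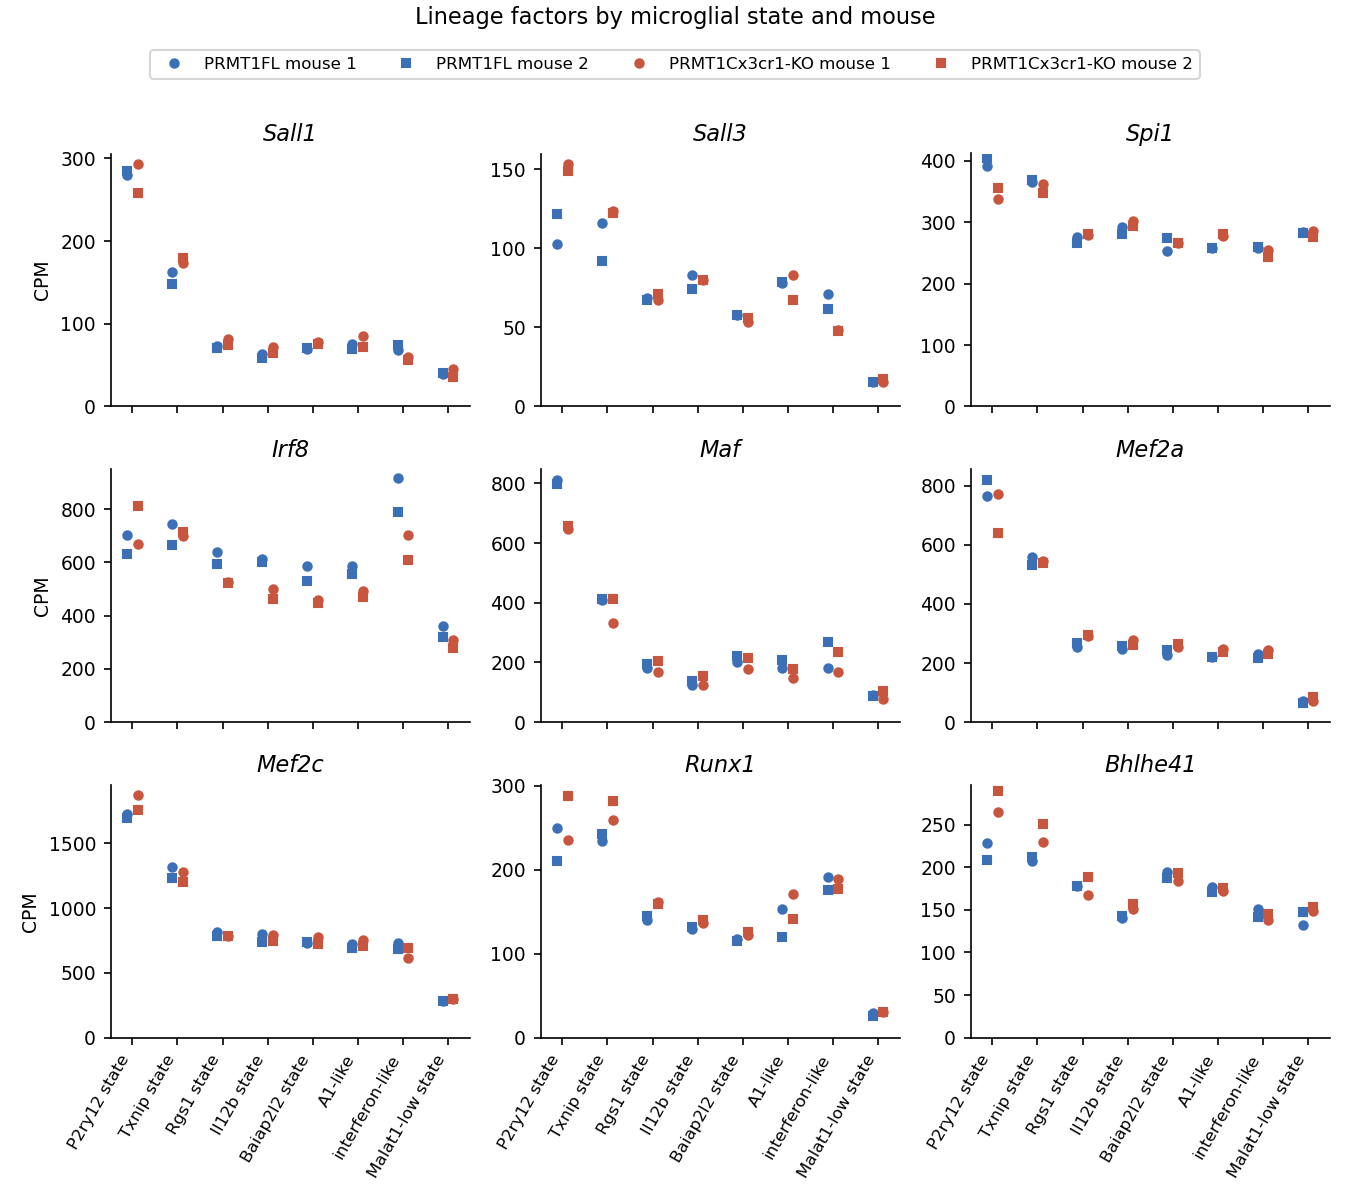
CPM of each lineage factor in the 8 microglial states with at least 50 cells in every mouse; circles are mouse 1 and squares mouse 2, blue for PRMT1FL and red for PRMT1Cx3cr1-KO, each axis starting at 0. In 8 of the 9 panels the P2ry12 and Txnip states stand above the rest, and in 7 the Malat1-low state stands below the rest.

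These states also differed in RNA make-up, and its part in the levels was not tested. Malat1, a nuclear non-coding RNA, took 0.0343 to 0.0570% of UMIs in the Malat1-low state, 3.90 to 4.88% in the P2ry12 state, 2.60 to 3.25% in the Txnip state and 0.831 to 1.60% in the other 5 states. Ribosomal protein genes took 23.2 to 27.0%, 10.3 to 10.7% and 13.4 to 15.1% in the same order of these states. The median cell of the P2ry12 state had 1734.5 to 2552 UMIs, the shallowest of the 8 states, and mitochondrial genes took 1.81 to 2.11% there and 2.52 to 2.76% in the Malat1-low state. Haemoglobin genes led the Malat1-low state in PRMT1FL mice (1779 and 922 CPM), yet no haemoglobin UMI was found in its cells in PRMT1Cx3cr1-KO mice. This split was not confined to that state, since the Rgs1 state of PRMT1FL mouse 1 held 112 CPM. Over all microglia haemoglobin genes were at 241 and 93.9 CPM in PRMT1FL against 0.0614 and 0.0217 CPM in PRMT1Cx3cr1-KO mice. The libraries thus differ in haemoglobin RNA along with genotype, and its part in the comparison of genotypes was not tested. In the Malat1-low state 7 of 9 members, all but Spi1 and Bhlhe41, were below every other state in all mice, against 23.9% of genes.

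Levels across states also moved with the genomic span of a gene. Over 5075 genes of at least 20 CPM in the Rgs1 state, the median log2 ratio of the Malat1-low to the Rgs1 state was 0.15 for genes under 10 kb, -0.17 from 10 to 30 kb, -0.62 from 30 to 100 kb and -1.10 from 100 kb, and for the P2ry12 state it ran the other way, at -0.12, 0.29, 0.62 and 0.77. Set against their own class, Maf (24.9 kb, 1.94), Sall1 (16.9 kb, 1.87) and Sall3 (20.4 kb, 0.96) had larger log2 ratios in the P2ry12 state, as did Mef2a (142 kb, 1.41), Mef2c (163 kb, 1.15) and Bhlhe41 (7.32 kb, 0.51). Irf8 (20.3 kb, 0.33), Spi1 (33.4 kb, 0.42) and Runx1 (225 kb, 0.73) lay near or below their class medians. In the Malat1-low state Runx1 (-2.33), Sall3 (-2.02), Mef2a (-1.89), Mef2c (-1.44), Maf, Sall1 (-0.90), Irf8 (-0.87) and Bhlhe41 (-0.29) were each below the median of their class, whereas Spi1 (0.03) was above it. The level of Sall3 in that state, 16.2 CPM over the mice together, was no higher than in a cluster of other brain cells (18.4 CPM). That of Mef2a was below those cells (73.8 against 135 CPM). Runx1 was at 29.2 against 26.7 CPM and Mef2c at 292 against 249 CPM, and the other members were also higher than in those cells. The ratios of Sall3, Mef2a and Runx1 thus rest on levels below or near those of other brain cells. What part of the levels in those cells is free RNA was not tested.

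**Figure D4:**
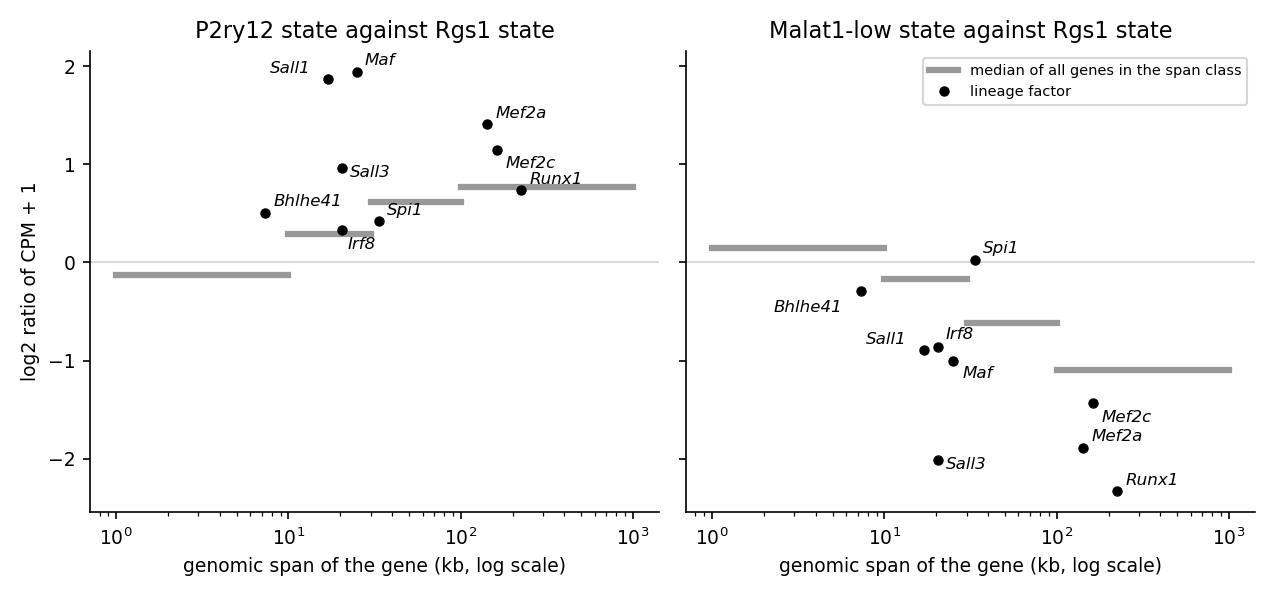
Log2 ratio of CPM + 1 in the P2ry12 state (left) and the Malat1-low state (right) to the Rgs1 state, pooled over 4 mice, against the genomic span of the gene in kb on a log axis; points are the lineage factors and grey bars the median of all genes in a span class. Maf (1.94) and Sall1 (1.87) stand far above their class bar (0.29) on the left. On the right Mef2a (-1.89) and Runx1 (-2.33) stand below their class bar (-1.10), and Sall3 (-2.02) below its own. The points of Mef2a, Runx1 and Sall3 on the right rest on levels below or near those of other brain cells.

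Over these 8 states Mef2a and Mef2c were the most alike pair of members (Pearson r = 0.998 of log2(CPM + 1), each state the mean of 4 mice), and Irf8 and Spi1 the least (r = 0.355). The promoters of Mef2a and Mef2c are shown from RefSeq (GRCm38.p6) since these genes moved together over states, beside that of Irf8, which had the lowest fold change between genotypes; RefSeq windows were matched for 6 of 8 members looked up. Each runs 5′ to 3′ on the gene's strand from 250 bases before the start to 50 after it, and capitals mark matches, on either strand, to the motif letters GAGGAA (PU.1), TGTGGT (RUNX), GAAA, any 2 bases and GAAA (IRF repeat), CACGTG (E-box), TGCTGA (part of the MAF site) and CTA, any 4 bases and TAG (MEF2), none of which overlap.
Mef2a, chr7:67372809-67373108, minus strand: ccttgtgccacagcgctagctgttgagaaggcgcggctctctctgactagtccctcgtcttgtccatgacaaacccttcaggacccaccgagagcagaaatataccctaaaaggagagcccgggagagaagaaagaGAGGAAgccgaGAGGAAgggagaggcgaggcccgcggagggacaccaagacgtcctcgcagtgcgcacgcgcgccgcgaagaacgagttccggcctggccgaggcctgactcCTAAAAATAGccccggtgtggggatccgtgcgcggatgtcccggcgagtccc
Mef2c, chr13:83503784-83504083, plus strand: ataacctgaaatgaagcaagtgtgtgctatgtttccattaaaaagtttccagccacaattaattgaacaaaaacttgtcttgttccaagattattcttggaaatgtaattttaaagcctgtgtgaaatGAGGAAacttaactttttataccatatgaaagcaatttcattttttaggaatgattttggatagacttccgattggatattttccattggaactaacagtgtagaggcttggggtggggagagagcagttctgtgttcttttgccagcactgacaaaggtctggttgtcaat
Irf8, chr8:120736108-120736407, plus strand: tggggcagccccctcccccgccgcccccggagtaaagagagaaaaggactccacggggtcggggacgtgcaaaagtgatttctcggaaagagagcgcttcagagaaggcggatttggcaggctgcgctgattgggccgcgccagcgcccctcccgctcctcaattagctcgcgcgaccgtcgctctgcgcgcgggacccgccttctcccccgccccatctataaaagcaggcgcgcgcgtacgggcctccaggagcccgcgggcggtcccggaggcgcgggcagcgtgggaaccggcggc
The Mef2a window held 2 PU.1 matches and a MEF2 match that begins 2 bases before the start, the Mef2c window held 1 PU.1 match 122 bases before it, and the Irf8 window held none of the 6. Of 32851 promoter windows, 28.3% hold the PU.1 letters, 16.8% those of RUNX, 3.44% the IRF repeat, 7.15% the E-box, 19.5% the MAF part and 3.69% those of MEF2. The GC content was 62.3% for Mef2a, 35.7% for Mef2c and 70% for Irf8, against a median of 52.7%. A match is a stretch of letters and not a bound site. RefSeq windows numbered 1 for Mef2a, 3 for Mef2c and 2 for Irf8, and only the one nearest the GENCODE gene start is shown. Which start is used in microglia was not tested.

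The genes whose levels over the 8 states were most like each member, among 5132 genes of at least 20 CPM, had Pearson r of at least 0.965. They were Ivns1abp and Was for Sall1; Bptf, Ggnbp2 and Ankrd11 for Sall3; Fscn1, Rhog and Zeb2os for Spi1; Tut7, Synj1 and Trim26 for Irf8. For Maf they were Ttc5, Tifab and Caml, for Mef2a Cdk13, Rnf216 and Fchsd2, and for Mef2c Rnf216, Dalrd3 and Tnrc6b. For Runx1 they were Birc2, Prpf38b and Elk4, and for Bhlhe41 Spg20, Hhex and Jkamp. The 8 points share the libraries, depth and RNA make-up of the states, and no p is given.

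The next question was whether a member differed between genotypes to another extent in a given state. Of 72 combinations of member and state 1 passed in limma's voom fit, where 526 of 102984 combinations over all genes did, or 0.511%. This was Irf8 in the P2ry12 state, where 160 of 12873 genes passed, or 1.24%. An unadjusted p under 0.05 was found for 14 of the 72 and for 9.63% of all combinations. The 8 states of a member share its mice, so these are not separate observations. Irf8 in the P2ry12 state was at 702 and 630 CPM in PRMT1FL mice and 670 and 812 CPM in PRMT1Cx3cr1-KO mice, which overlap. In the Rgs1 state it was 640 and 593 CPM against 525 and 521 CPM, and in the Il12b state 612 and 600 CPM against 499.5 and 463 CPM. Both PRMT1Cx3cr1-KO mice were below both PRMT1FL mice for Irf8 in 6 of 8 states, all but the P2ry12 and Txnip states, and 3.12% of genes were so in at least 6.

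The log2 fold change of Irf8 was 0.22 (standard error 0.12) in the P2ry12 state, -0.02 (standard error 0.08) in the Txnip state and between -0.42 and -0.28 in the other 6. In the P2ry12 state it lay 0.53 (standard error 0.12) above the mean of the other states (adjusted p = 0.0274 by limma), and in the Txnip state 0.25 above it (adjusted p = 0.177 by limma). The P2ry12 result rested on PRMT1Cx3cr1-KO mouse 2, without which it was 0.27 (adjusted p = 0.686 by limma); without PRMT1FL mouse 1 it was 0.52 (adjusted p = 0.503 by limma), and without PRMT1FL mouse 2 also 0.52 (adjusted p = 0.529 by limma). With cells thinned to 2000 UMIs it was 0.54 (adjusted p = 0.0874 by limma) and with no filter on low counts 0.53 (adjusted p = 0.19 by limma). Thinning kept 752 of the 1405 cells of the P2ry12 state. The median cell of the P2ry12 state held 2319 and 2552 UMIs in PRMT1FL against 1734.5 and 1822 UMIs in PRMT1Cx3cr1-KO mice, and Malat1 took 4.65 and 4.88% against 4.08 and 3.90%; their part in the result was not tested.

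**Figure D5:**
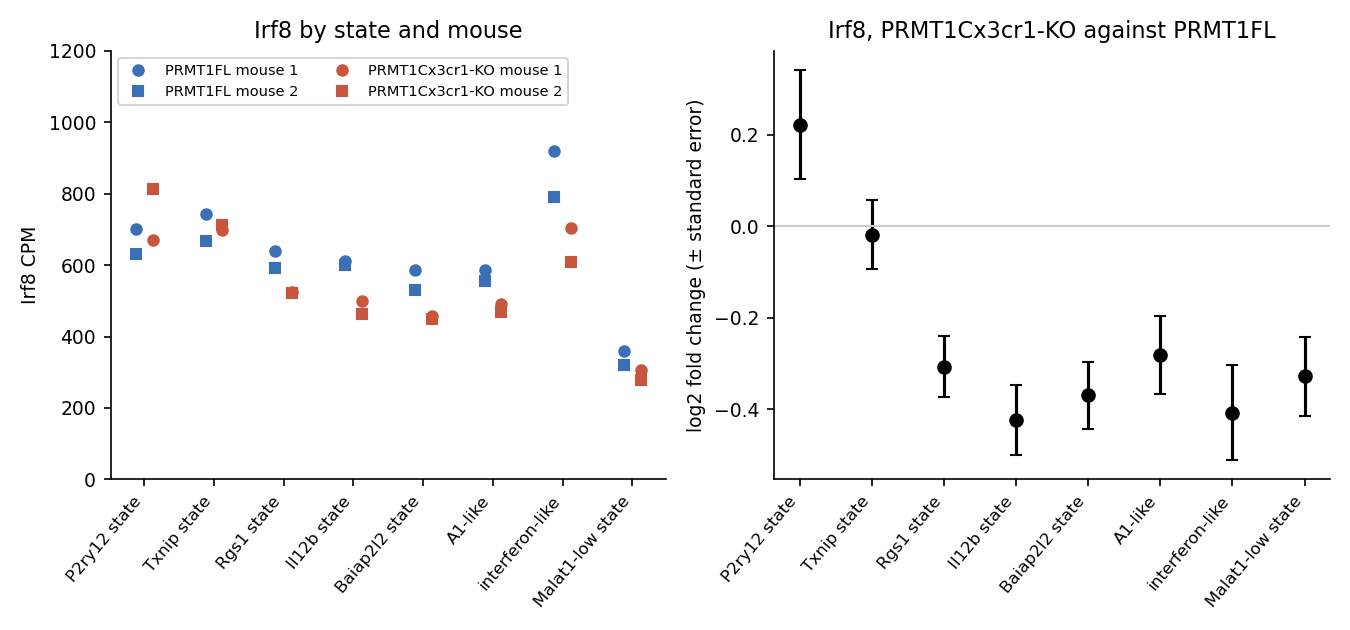
Left, Irf8 in CPM by state and mouse (circles mouse 1, squares mouse 2); right, its log2 fold change in each state, PRMT1Cx3cr1-KO against PRMT1FL, with standard errors from limma. The lowest 6 states lie between -0.42 and -0.28, and the P2ry12 state lies at 0.22 with overlapping mice.

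Bhlhe41 was nearest to the threshold after Irf8. In the P2ry12 state it was at 229 and 208 CPM in PRMT1FL mice and 265 and 289 CPM in PRMT1Cx3cr1-KO mice, which do not overlap, and its log2 fold change lay 0.41 (standard error 0.10) above the other states (adjusted p = 0.0689 by limma). Sall3 in that state was at 103 and 122 CPM against 153 and 149 CPM, 0.55 (standard error 0.18) above the other states (adjusted p = 0.207 by limma). In interferon-like cells it lay the other way, at 71.4 and 61.6 CPM against 48.5 and 47.9 CPM, which is -0.54 (standard error 0.21) relative to the other states (adjusted p = 0.344 by limma). Both PRMT1Cx3cr1-KO mice were also below both PRMT1FL mice for Sall3 in the Baiap2l2 state. Mef2a was higher in both PRMT1Cx3cr1-KO mice in 6 of 8 states, as 9.94% of genes were in at least 6, with log2 fold changes by state of -0.15 to 0.12. This count rests on CPM not scaled by TMM. In the limma fit, which is scaled, the log2 fold change in the Il12b state, among those 6, was -0.004. Maf in the P2ry12 state was at 811 and 797 CPM against 648 and 658 CPM, lower in both PRMT1Cx3cr1-KO mice. Such orders were found for other members too and went both ways. Runx1 was higher in both PRMT1Cx3cr1-KO mice in 5 of 8 states, Sall1 in 4 and Mef2c in 2, with Sall1 lower in 1. Spi1 was higher in 3 and lower in 3, and Sall3 and Bhlhe41 were also higher in the Txnip state. These counts too rest on CPM not scaled by TMM. In the limma fit the log2 fold change of Spi1 was -0.04 in the Il12b state and -0.03 in the Rgs1 state, both counted as higher. So were Mef2c (-0.02) and Runx1 (-0.004) in the Malat1-low state and Runx1 (-0.003) in the Il12b state. How many of all genes part the genotypes within a given state was not counted, so these orders are no result about the members.

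Shares of cells with a UMI were compared after each cell was thinned to 2000 UMIs, which left out 582 to 1039 shallower microglia per mouse. Irf8 was found in 67.1 and 65.2% of PRMT1FL microglia and in 62.0 and 59.2% of PRMT1Cx3cr1-KO microglia, a difference of -5.59 percentage points (exact permutation test, two-sided, p = 0.333, the smallest that 2 mice against 2 allow). Unthinned, the shares were 88.5 and 89.6% against 86.4 and 87.1%. The groups overlapped for the other 8 members, whose shares ran from 11.6 to 12.4% for Sall3 and from 14.9 to 16.6% for Sall1 up to 71.4 to 75.6% for Mef2c, and whose exact permutation p were 0.667 or 1. In the P2ry12 state 40.2% of 752 thinned cells had a Sall1 UMI (95% exact binomial interval 36.6 to 43.8%), and in the Malat1-low state 8.39% of 6159 (7.71 to 9.11%). Thinning kept those 752 of 1405 cells of the P2ry12 state. Its loss was unequal, as the median cell there held 1734.5 and 1822 UMIs in PRMT1Cx3cr1-KO against 2319 and 2552 in PRMT1FL mice. In a cluster of other brain cells, with astrocyte, oligodendrocyte and endothelial markers, 4.36% of 321 had a Sall1 UMI (2.40 to 7.21%). What part of the UMIs in that cluster is free RNA was not tested. Runx1 in the Malat1-low state, at 5.33% (4.78 to 5.92%), overlapped in its interval with those other brain cells (3.12%, 1.5 to 5.65%). Sall3 in that state, at 2.83% (2.43 to 3.27%), was level with them (2.80%, 1.29 to 5.26%) and cannot be told apart from its share in those cells. Mef2a was found in fewer cells of that state (12.6%) than of the other brain cells (24.9%). Intervals cover counting error only.

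Within microglia, cells with a UMI of a member were set against cells without, again at 2000 UMIs a cell. In 69 of 72 ordered pairs the level of the other member was higher in cells with the UMI in all 4 mice, with a median log2 ratio of 0.32 where the median over all genes was 0.11. That all-gene median was above 0 for each member in each mouse, from 0.02 to 0.19, so a ratio above 0 was common. How many of all genes were above 0 in all 4 mice was not counted, so the count of 69 is no result about the members. The highest ratios were those of Sall3 (0.82) and Mef2a (0.80) in cells with a Mef2c UMI. In cells with a Sall1 UMI the ratio was 0.67 for Maf, 0.58 for Sall3 and 0.13 for Spi1. The 90th percentile over all genes, by mouse, was 0.64 to 0.71 in Mef2c cells and 0.43 to 0.50 in Sall1 cells. In Sall1 cells the mean ratios of Maf, Sall3 and Mef2a (0.53) lay above that range. Those of Mef2c (0.39), Runx1 (0.36), Bhlhe41 (0.19), Irf8 (0.17) and Spi1 lay below it. The pairs that did not hold in all mice were Spi1 with Bhlhe41 in either direction (-0.01 and -0.03) and Runx1 in Spi1 cells (0.07). These ratios run over all states together, so that they carry the differences between states described above, and no p is given.

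Cell groups with few cells in a mouse stood outside the test. Ms4a7 and Clec12a led the B1-like cells, of which the PRMT1FL mice had 32 and 8 and the PRMT1Cx3cr1-KO mice 87 and 466. In PRMT1Cx3cr1-KO mice these cells held Sall1 at 22.7 and 19.4 CPM (12 and 55 UMIs) and Sall3 at 5.67 and 8.82 CPM (3 and 25 UMIs), below every value in the 8 states above. Their Mef2c (658 and 661 CPM) lay within the values of the 8 states. Their Irf8 (397 and 391 CPM) was above the Malat1-low state (277 to 359 CPM) and below every value in the other states, the lowest of which was 449 CPM. In PRMT1FL mice 0 and 3 Sall1 UMIs were found there. A count of 0 allows up to 18.8 CPM in mouse 1, whereas the 3 UMIs of mouse 2 make 65.5 CPM, within the values of the 8 states. The limit in PRMT1FL mouse 1, from 32 cells, is also below the lowest value in the 8 states (36.1 CPM). The low level of Sall1 in B1-like cells thus rests chiefly on the PRMT1Cx3cr1-KO mice. Sall1 UMIs were found in 3.17% of 567 thinned B1-like cells (95% exact binomial interval 1.89 to 4.97%), within the interval of the other brain cells. The Mmp12 state, named for a macrophage elastase, of 1 and 2 PRMT1FL cells and 64 and 119 PRMT1Cx3cr1-KO cells, held Bhlhe41 at 428 and 382 CPM in the knockouts, above the highest value (289 CPM) in the 8 states.

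F-like cells, led by Mrc1, F13a1 or class II antigen genes, numbered 717 and held Maf at 752 and 582 CPM in PRMT1FL mice and 553 and 422 CPM in PRMT1Cx3cr1-KO mice. Sall1 was at 40.2 to 57.4 CPM and Sall3 at 30.1 to 45.8 CPM in them, with Sall1 UMIs in 7.03% of 640 thinned cells (95% exact binomial interval 5.17 to 9.30%), an interval that overlaps with that of the other brain cells. PRMT1Cx3cr1-KO mouse 2 had the highest Sall1 and the lowest Maf. In that mouse 26.4% of F-like cells were marked doublets, against 8.45 to 13.2% in the others. Its median F-like cell held 9967 UMIs, against 3452.5 to 5553.5 in the others. The part of doublets and depth in these levels was not tested. Spi1 (279 to 326 CPM), Mef2c (769 to 930 CPM) and Irf8 (449 to 496 CPM) were within the range of the microglial states. Neutrophil-like cells, 73 in all and absent from PRMT1Cx3cr1-KO mouse 1, held Spi1 at 514 and 442 CPM in PRMT1FL mice, above all 8 microglial states, and Irf8 at 70.9 and 125 CPM, below all 8.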

How the data were processed

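Cells sorted for CD45 and CD11b were sequenced by the authors with a 10x Genomics 3′ kit. Per the labels and the submitters' processing notes, reads were counted with Cell Ranger 3.1.0 on mm10, and Seurat 3.2.0 and Scanpy 1.5.2 are also named there. The deposited values are raw UMI counts per gene and barcode, unnormalized. The barcodes are more than the study describes, and no reduction was made.

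Cells were kept at 200 to 6000 genes and at most 10% mitochondrial counts, scaled to 10000, reduced to 2000 variable genes and 20 principal components and clustered over all mice together (scanpy 1.11.5, Leiden resolution 0.4, 11 clusters). Clustering used neither the 9 members nor the 749 genes called by edgeR between genotypes when every cell was summed. A mixed cluster was divided again. Doublets were scored against simulated ones; the caller's own threshold marked almost none, so the top 6.54 to 9.15% per mouse were marked, kept in the main fit and left out in an alternative.

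Counts were summed per mouse, since the mouse is the replicate, and tested with edgeR 4.0.16 (TMM, filterByExpr, quasi-likelihood; 13824 genes), with Benjamini-Hochberg adjustment over all genes and a threshold of 0.05. Genotype by state was fitted with limma 3.58.1 voom over 12873 genes and 8 states, with the mouse as a random block and adjustment over all combinations. DESeq2 1.42.0 was an alternative. Both steps were run on simulated data, in which the planted changes were larger than any estimate for a member. Those runs cannot tell whether changes as small as those of the members would be found. Microglial totals were 72782304 to 92180178 UMIs per mouse. With 2 mice per genotype the edgeR p-values measure the spread between these mice only. The limma fits hold a sum for each mouse and state, with a common correlation within mice except in the fit with the replicate block, which had none. Their p-values thus draw also on the spread between states of the same mice, and the states of a mouse are not further replicates.

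The members were chosen with earlier results of these data known, as were the lists, so no list has a p of its own. All members are named; from each other list the 4 genes with the smallest p, and for each member the 3 genes with the highest r over states. 1 gene that this rule gives is not reported here. Coordinates are from GENCODE vM21 on GRCm38, the same assembly as mm10.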

Additional observations from a re-analysis of the deposited data

Results flagged for a closer look

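Irf8 in the P2ry12 state met the test for a difference between cell states: its log2 fold change there, PRMT1Cx3cr1-KO against PRMT1FL, lay 0.53 above the mean of the other 7 states (adjusted p = 0.0274 by limma). The mice of the genotypes overlap within that state, and the value was 0.27 without PRMT1Cx3cr1-KO mouse 2. That state was no longer a cluster of its own with the members kept in the clustering.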

How the results depend on the processing

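No member was called under DESeq2 size factors, all cells, no marked doublets, a 5% mitochondrial limit, thinning, or without B1-like, A1-like or Malat1-low state cells (the last chosen after seeing the data). The numbers called were 1 by DESeq2, 1 with no low-count filter, 2 with the state as a term, and 0 to 1 with a mouse left out. Genes called in all numbered 729, 1672 and 2927 in the first 3 of these, 749 over all cells, and 4 to 2644 with a mouse left out. Same-numbered mice share only a number (correlation of their deviations -0.04 over 8867 genes). With the replicate block 208 genes and 0 members were called, and Irf8 in the P2ry12 state stayed called (0.53, adjusted p = 0.0102 by limma). That limma fit held no correlation within mice and took the states of a mouse as separate observations. Its smaller p thus cannot be read as further support.

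Sign changes, none called, were 0.00905 for Sall3 and 0.022 for Bhlhe41 over all cells; -0.074 for Sall1, 0.023 for Sall3 and -0.027 for Mef2a with thinning; and 0.00767 for Bhlhe41 with the state as a term. With a mouse left out the ranges were -0.076 to 0.144 for Sall1, -0.122 to 0.057 for Sall3, -0.0395 to 0.098 for Mef2a and -0.049 to 0.0101 for Bhlhe41. By state, 0 members were called with no filter and 0 with thinning, 0 to 1 with a mouse left out, and 3 (Irf8, Sall3 and Bhlhe41) with the P2ry12 and Txnip states joined, chosen after seeing the data. With the members kept in the clustering, only 1 of them was among its 2000 variable genes. Even so, 72.3% of cells kept their state, and the P2ry12 state was no longer a cluster of its own. The division into states is thus sensitive to small changes in the clustering genes. The Malat1-low to Rgs1 ratio of Spi1 turned to -0.12. The members below every other state in the Malat1-low state then numbered 7, and 5 with thinning. Shares of cells with a UMI did not overlap between genotypes for 1 member at 2000 UMIs, 1 unthinned and 5 at 1000 UMIs. The 5 were Irf8, Spi1 and Sall3, lower in PRMT1Cx3cr1-KO mice, and Runx1 and Bhlhe41, higher. The nearest mice of the 2 genotypes were at 6.35 and 6.33% for Sall3 and at 14.22 and 14.24% for Runx1. How many of all genes part the genotypes in this way was not counted, so these counts are no result about the members. With 2 mice a genotype, changes smaller than about the intervals given could not be seen.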

Other observations

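Monocyte-like cells, 29 in all and none in PRMT1Cx3cr1-KO mouse 1, held 85 UMIs of Spi1 (422 CPM over the mice together), 49 of Irf8 (244 CPM), 16 of Maf (79.5 CPM) and 5 of Sall1 (24.9 CPM). A mixed myeloid group of 92 cells, which carried markers of several lists, held Maf at 348 CPM, Irf8 at 488 CPM and Sall1 at 39.1 CPM over the mice together. These values rest on few cells and belong to no comparison.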
